A study of Arabidopsis thaliana with 18 samples.

Results

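The xylem secondary wall genes described here are 9 of the 32547 Arabidopsis loci counted in every library. They were picked by locus identifier after TED6 had been seen at low levels in the libraries labelled tt1, so the tt1 values of TED6 and of the other members are given as a description, with no test. The members are TED6 (AT1G43790), XCP1 (AT4G35350), XCP2 (AT1G20850), CESA4 (AT5G44030), CESA7 (AT5G17420), CESA8 (AT4G18780), VND7 (AT1G71930), MYB46 (AT5G12870) and LAC17 (AT5G60020).

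All libraries came from Arabidopsis thaliana seedlings grown with shaking for 4 days, with 3% sucrose and 24 h light, named AIC in the labels with no expansion. The mutant groups were ban (ban-6, ban-7), tt1 (tt1-4, tt1-5), tt3 (tt3-3, tt3-4), tt5 (tt5-3, tt5-4), tt8 (tt8-7 to tt8-12) and ttg1 (ttg1-23, ttg1-24), all insertion lines from the SALK, SAIL or GK collections, and the wild type was Col-0. Each of the 16 alleles had a single library, so the samples of a locus are different insertion lines and not repeats of a line. The gap between the 2 Col-0 files was smaller than sampling noise, so they were counted as 1 sample, which makes 17 samples. No label says that libraries came from separate cultures, so the p-values reflect the spread among these samples alone, which may be technical. The TRANSPARENT TESTA loci act in the flavonoid pathway: TT3, TT5 and BAN encode enzymes, and TT1, TT8 and TTG1 encode regulators. The comparison named in the submitters' design is of each candidate mutant with Col-0.

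Water-conducting vessel cells of the xylem lay down a thick secondary wall of cellulose, xylan and lignin beneath the primary wall, and then die and clear their contents. NAC transcription factors of the VND family switch this programme on, MYB46 and MYB83 act below them, and wall-building and cell-clearing enzymes are the end targets. The secondary wall cellulose synthase complex is built from CESA4, CESA7 and CESA8 together, whereas other CESA proteins make primary walls.

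Total counts ran from 8057534 to 27145377 per library, so that 3 counts, the floor used for a gene at 0, corresponded to between 0.111 and 0.372 counts per 1000000 counts of a library (CPM). Among the targeted loci, TTG1 had 0 to 15.9 CPM in the ttg1 libraries, against 22.7 to 28.6 CPM in the other mutants and 30.4 CPM in Col-0, and TT5 had 4.23 to 4.50 CPM in its own mutants, against 10.1 to 89.2 CPM in the other mutants and 43.4 CPM in Col-0. The libraries labelled tt3 had more TT3 than Col-0 (211 to 274 CPM, against 0 to 264 CPM in the other mutants and 63.2 CPM in Col-0), and TT8 had 6.97 to 102 CPM in the libraries labelled tt8, against 0.248 to 36.9 CPM in the other mutants and 11.5 CPM in Col-0. BAN and TT1 never exceeded 2 counts and could not serve as a check. A whole-gene count can include sequence outside an insertion, so these levels do not settle the genotype of a line. Of the 6 mesophyll markers, CAB2 stayed at or below 0.320 CPM in all 17 samples, LHB1B1 at or below 0.615 CPM and LHCB2.3 at or below 1.27 CPM. LHCB3 had 0.313 to 3.90 CPM, LHCA3 1.53 to 8.87 CPM and RBCS1A 82.5 to 295 CPM.

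Promoter windows of 3 members are printed. The motif bound by VND proteins in vessel-enzyme genes, the tracheary-element-regulating element (TERE), lies in those of XCP1 and CESA4. It is absent from that of TED6, as from most members, and a link between motif and level was not tested. Each window runs 5′ to 3′ on the gene's strand from 250 bases before to 50 bases after the annotated start in TAIR10.1 (RefSeq), all 3 on the plus strand, at chr1:16575509-16575808 for TED6, chr4:16810232-16810531 for XCP1 and chr5:17714140-17714439 for CESA4. Capitals mark matches to that element and to the MYB46-type motif, searched on either strand as ACC, then A or T, then A, then A or C, then C or T. TED6 is a single-exon gene at chr1:16575759-16576541, XCP1 lies at chr4:16810482-16812077 and CESA4 at chr5:17714390-17719723.
TED6: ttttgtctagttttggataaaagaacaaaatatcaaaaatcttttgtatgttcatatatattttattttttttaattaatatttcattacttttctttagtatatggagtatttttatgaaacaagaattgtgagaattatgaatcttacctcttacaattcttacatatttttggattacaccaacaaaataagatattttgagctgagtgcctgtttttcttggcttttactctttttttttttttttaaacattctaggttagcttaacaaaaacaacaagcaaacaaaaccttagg
XCP1: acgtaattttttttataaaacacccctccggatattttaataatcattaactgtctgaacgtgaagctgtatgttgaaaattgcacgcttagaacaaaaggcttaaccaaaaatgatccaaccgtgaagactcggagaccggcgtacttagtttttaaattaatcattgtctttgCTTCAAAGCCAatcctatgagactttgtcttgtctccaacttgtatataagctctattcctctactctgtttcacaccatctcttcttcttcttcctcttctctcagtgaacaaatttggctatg
CESA4: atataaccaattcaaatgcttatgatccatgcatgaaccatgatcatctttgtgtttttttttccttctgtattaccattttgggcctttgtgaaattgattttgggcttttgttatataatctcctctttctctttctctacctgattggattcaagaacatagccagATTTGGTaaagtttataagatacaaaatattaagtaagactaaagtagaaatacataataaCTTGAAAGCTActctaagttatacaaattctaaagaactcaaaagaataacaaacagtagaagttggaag

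The TERE, CTT then any base, AAAGC, any base and A, was searched on both strands in the windows of 27443 protein-coding genes and was present in 0.448% of them, and in 2 of the 9 members. In XCP1 it began at −75 from the start (CTTCAAAGCCA) and in CESA4 at −20 (CTTGAAAGCTA). The MYB46-type variants were found in 33.6% of all windows and in 5 of the 9 members, CESA4, CESA7, CESA8, VND7 and LAC17. The secondary wall NAC binding element, named only, was found in 48.2% of all windows and in 8 of 9 members. TED6 was among these 8, and CESA4 was the member without it. The motifs can overlap each other, and a match describes letters in a window, not a bound site.

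TED6 encodes a plasma membrane protein of differentiating vessel cells that, with its relative TED7, binds the secondary wall cellulose synthase complex. TED6 had 4.74 and 3.76 CPM in ban-6 and ban-7, 1.46 and 1.22 CPM in tt1-4 and tt1-5, 4.97 and 3.57 CPM in tt3-3 and tt3-4, and in tt5-3 and tt5-4 the levels were 7.81 and 6.003 CPM, against 13.2 CPM in Col-0. In tt8 lines the lowest, median and highest levels were 1.96, 4.33 and 7.83 CPM, and ttg1-23 and ttg1-24 had 4.93 and 2.85 CPM. Col-0 lay above all 16 mutant libraries, 1.69-fold above the highest of them, tt8-9, and the tt1 libraries lay below the other 15 samples. The low tt1 levels are what led to the choice of these genes. Against Col-0 1.55% of genes were called in tt1, and against the enzyme lines 0.0%. As fitted, TED6 in tt1 was −3.42 (SE 0.58) on the log2 scale against Col-0 and −1.92 (SE 0.45) against the 6 enzyme-mutant libraries (ban, tt3 and tt5 with equal weight).

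XCP1 and XCP2 encode papain-like cysteine peptidases that digest the contents of dying vessel cells. XCP1 had 14.8 and 6.89 CPM in ban-6 and ban-7, 7.67 and 6.12 CPM in tt1-4 and tt1-5, 10.8 and 8.18 CPM in tt3-3 and tt3-4, 14.9 and 8.86 CPM in tt5-3 and tt5-4, 9.09 and 7.69 CPM in ttg1-23 and ttg1-24, and 3.70, 10.2 and 18.7 CPM as lowest, median and highest of tt8, against 22.6 CPM in Col-0. XCP2 had 29.0 and 6.64 CPM in ban-6 and ban-7, 8.21 and 7.57 CPM in tt1-4 and tt1-5, 11.8 and 8.55 CPM in tt3-3 and tt3-4, 19.9 and 21.0 CPM in tt5-3 and tt5-4, 16.02 and 14.0 CPM in ttg1-23 and ttg1-24, and 5.08, 14.1 and 20.6 CPM as lowest, median and highest of tt8, against 32.6 CPM in Col-0. Col-0 was the highest of the 17 samples for both genes, and tt8-8 the lowest.

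CESA4 had 13.8 and 5.51 CPM in ban-6 and ban-7, 10.3 and 9.48 CPM in tt1-4 and tt1-5, 11.8 and 7.22 CPM in tt3-3 and tt3-4, 11.9 and 14.8 CPM in tt5-3 and tt5-4, 15.4 and 12.0 CPM in ttg1-23 and ttg1-24, and 8.79, 9.42 and 11.7 CPM as lowest, median and highest of tt8, against 20.7 CPM in Col-0. CESA7 had 13.8 and 4.38 CPM in ban-6 and ban-7, 7.83 and 6.5004 CPM in tt1-4 and tt1-5, 8.38 and 4.57 CPM in tt3-3 and tt3-4, 8.03 and 12.0 CPM in tt5-3 and tt5-4, 15.4 and 7.32 CPM in ttg1-23 and ttg1-24, and 6.40, 7.79 and 9.48 CPM in tt8, against 20.9 CPM in Col-0. CESA8 had 9.33 and 3.07 CPM in ban-6 and ban-7, 4.37 and 4.21 CPM in tt1-4 and tt1-5, 5.13 and 2.69 CPM in tt3-3 and tt3-4, 6.97 and 9.00 CPM in tt5-3 and tt5-4, 9.16 and 5.83 CPM in ttg1-23 and ttg1-24, and 3.92, 5.23 and 6.44 CPM in tt8, against 12.3 CPM in Col-0. Each synthase was highest in Col-0, and the lowest library was ban-7 for CESA4 and CESA7 and tt3-4 for CESA8. Alleles of a locus could differ more than loci did: ban-6 was 2.50-fold over ban-7 for CESA4, 3.16-fold for CESA7 and 3.04-fold for CESA8, against 1.26-fold for TED6.

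VND7, the NAC factor that starts protoxylem vessel formation, was near the limit of detection. It had 0.535 and 0.313 CPM in ban-6 and ban-7, 0.432 and 0.229 CPM in tt1-4 and tt1-5, 0.481 and 0.184 CPM in tt3-3 and tt3-4, 0.221 and 0.290 CPM in tt5-3 and tt5-4, 0.145, 0.284 and 0.496 CPM as lowest, median and highest of tt8, and 0.185 CPM in ttg1-23, against 1.12 CPM in Col-0. In ttg1-24 it had 0 counts, which allows up to 0.372 CPM. No mutant library exceeded 9 counts, against 18 counts in Col-0. VND7 passed the filter on low counts, at 0.545 CPM, through Col-0 alone, and so had to be higher there.

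MYB46, a MYB factor that directly activates the secondary wall CESA genes, had 1.99 and 1.00 CPM in ban-6 and ban-7, 1.62 and 1.07 CPM in tt1-4 and tt1-5, 1.495 and 0.774 CPM in tt3-3 and tt3-4, 2.03 and 1.69 CPM in tt5-3 and tt5-4, 2.49 and 1.86 CPM in ttg1-23 and ttg1-24, and 0.901, 1.47 and 1.72 CPM in tt8, against 1.74 CPM in Col-0. Col-0 ranked 5 of 17, inside the range of the mutants. LAC17, a laccase that polymerises lignin, had 8.71 and 2.13 CPM in ban-6 and ban-7, 3.56 and 1.68 CPM in tt1-4 and tt1-5, 4.91 and 3.61 CPM in tt3-3 and tt3-4, 5.25 and 6.15 CPM in tt5-3 and tt5-4, 4.38 and 2.61 CPM in ttg1-23 and ttg1-24, and 2.91, 4.78 and 5.86 CPM in tt8, against 7.54 CPM in Col-0. For LAC17, 15 of 16 mutant libraries lay below Col-0, with ban-6 above it. An antisense gene, AT5G60022, overlaps 2266 bases of LAC17 and had 0.248 to 1.49 CPM in the mutants, against 0.0623 CPM in Col-0; whether the counting used strand is unknown here.

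**Figure D1:**
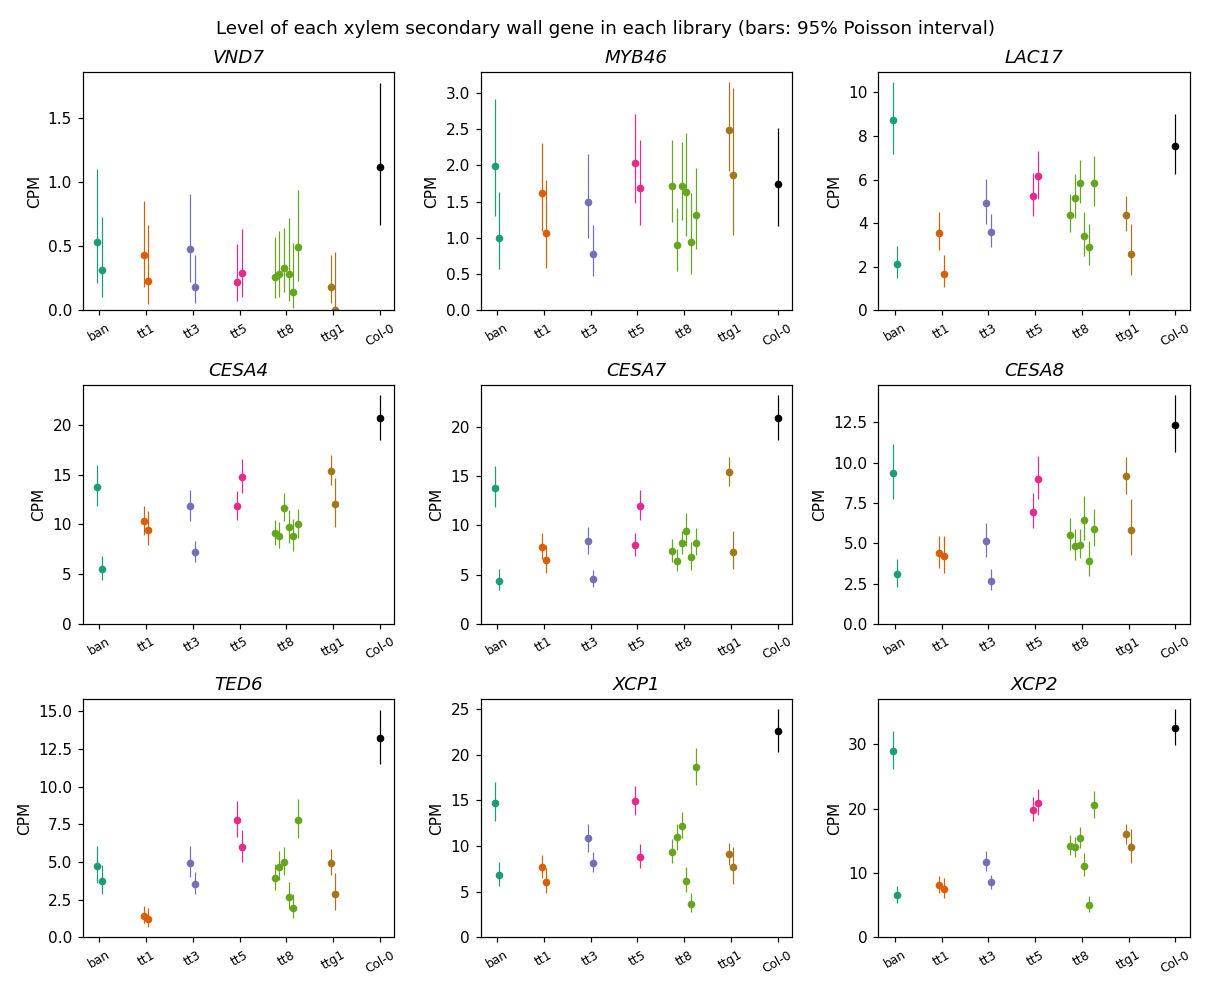
CPM of the 9 genes (y axis, from 0) by locus (x axis), 1 point per library with its 95% Poisson interval, which covers counting error only, and Col-0 at the right. Col-0 is the highest of 17 samples in 7 panels, ranks 5 for MYB46 and 2 for LAC17, and the tt1 points are the lowest in the TED6 panel.

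Per kilobase of annotated exon, the median level over the 16 mutant libraries was highest for XCP2 (10.2 CPM per kb), followed by XCP1 (6.35), TED6 (5.53), CESA4 (2.70), CESA7 (2.33), LAC17 (2.10), CESA8 (1.59), MYB46 (1.30) and VND7 (0.171). The ranges of neighbours in that order overlapped: XCP2 covered 3.69 to 21.1 and XCP1 2.62 to 13.2 CPM per kb. In Col-0 the levels per kb were 23.7 for XCP2, 15.97 for XCP1 and 16.9 for TED6, so TED6 and XCP1 stood in the opposite order there.

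Col-0 was the highest of the 17 samples for 7 of the 9 members, against 10.8% of the 20747 genes tested, and the lowest for 0 of 9, against 19.4%. Leaving out genes that reached the filter level in no mutant, it was 6 of 8 members, against 10.7%. Col-0 is a single sample, so these places compare 1 library preparation with 16, and fewer xylem cells and less RNA per cell cannot be told apart in whole seedlings. The Col-0 files and 2 tt8 files had Windows line ends and the other 14 files Unix line ends; within tt8 TED6 was −1.99 on the log2 scale against Col-0 in the Windows files and −1.44 in the Unix files, and the mean of every member was below Col-0 in both.

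In the fit across all genes (edgeR quasi-likelihood test, Benjamini-Hochberg adjustment), 0 of the 9 members passed an adjusted p of 0.05 in any of the 7 comparisons tested. For ban against Col-0, where 0.569% of all genes were called, the unadjusted p was under 0.05 for 3 members, VND7 not among them, and DESeq2 called 0 of 9. VND7, which passed the filter through Col-0 alone, is left out of the counts that follow, which are over the other 8 members. In tt3 (0.602% of genes called) these numbers were 5 and 4, for tt5 (0.246%) 0 and 0, for tt8 (2.21%) 6 and 3, and for ttg1 (1.56%) 2 and 1. An unadjusted p under 0.05 was itself common, reached by 15.0% of all genes for ban, 18.8% for tt3, 10.8% for tt5, 20.5% for tt8 and 18.9% for ttg1. DESeq2 called TED6, CESA4, CESA7 and CESA8 in tt3, TED6, CESA4 and CESA7 in tt8 and TED6 in ttg1, against 5.19%, 7.12% and 7.44% of all genes, and it called 3.72% of genes for ban and 2.0% for tt5. With the Col-0 files as 2 samples edgeR called 2 of these 8 in ban (8.89% of genes), 4 in tt3 (12.1%), 0 in tt5 (4.17%), 6 in tt8 (21.0%) and 1 in ttg1 (14.4%), which treats 2 files alike within sampling noise as independent.

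The fitted values of the members were mostly below 0 against Col-0, which these comparisons share. The median was −1.13 for ban, −1.77 for tt3, −0.78 for tt5, −1.30 for tt8 and −1.14 for ttg1, while the median over all genes lay between 0.02 and 0.06. All 9 were below 0 in ban, tt3, tt5 and tt8, and 8 of 9 in ttg1, where MYB46 was 0.28. These counts and medians include VND7, which had to be higher in Col-0 to pass the filter. TED6 was −1.70 (SE 0.56, adjusted p = 0.177) in ban, −1.77 (SE 0.55, adjusted p = 0.140) in tt3, −1.04 (SE 0.55, adjusted p = 0.536) in tt5, −1.68 (SE 0.45, adjusted p = 0.0706) in tt8 and −1.79 (SE 0.56, adjusted p = 0.110) in ttg1, none of which passed. Leaving out tt8-9 brought TED6 in tt8 past the threshold (adjusted p = 0.0364), and leaving out ban-6 did so for CESA4, CESA7 and CESA8 in ban; of all genes 1.23% and 3.42% were called there.

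CESA7 was −1.27 (SE 0.54) in ban, −1.83 (SE 0.54) in tt3, −1.16 (SE 0.54) in tt5 and −1.49 (SE 0.44) in tt8. CESA4 was −1.18 (SE 0.39) in ban, −1.26 (SE 0.39) in tt3 and −1.16 (SE 0.32) in tt8. CESA8 was −1.07 (SE 0.51) in ban, −1.80 (SE 0.50) in tt3 and −1.30 (SE 0.42) in tt8. None passed the threshold, with Col-0 as 1 sample. XCP1 was between −1.46 and −1.03 in the 5 comparisons with Col-0, and XCP2 was −1.82 in tt3, −1.35 in tt8 and −1.15 in ttg1. VND7 was −1.47 in ban, −1.92 in tt3, −2.21 in tt5, −1.94 in tt8 and −3.14 in ttg1; the last value rests on 5 and 0 counts and was −2.67 without ttg1-24 and −7.48 without ttg1-23. LAC17 was −1.14 in ttg1 and smaller in size elsewhere, and MYB46 lay between −0.77 and 0.28.

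**Figure D2:**
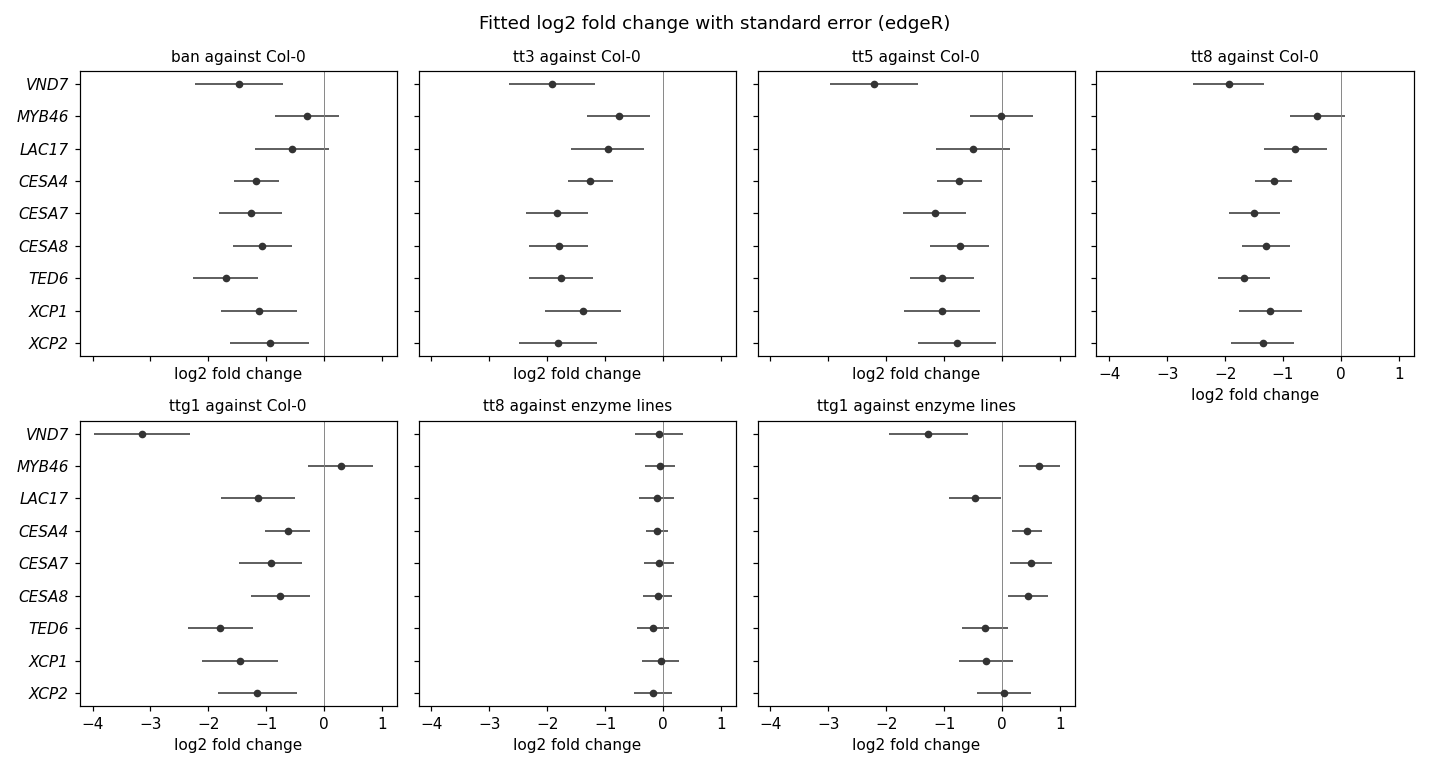
Fitted log2 fold change (x axis) of the 9 genes (y axis) in the 7 comparisons tested, with bars of 1 standard error. The 5 panels against Col-0 lie mostly left of 0 and the tt8 panel against the enzyme lines lies between −0.17 and −0.04.

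The tt8 and ttg1 libraries were also set against the enzyme mutants, with values near 0 in tt8 and more spread in ttg1. In tt8 against the enzyme lines the 9 values ran from −0.17 to −0.04, with 0 called by edgeR (0.0% of all genes called), 0 at an unadjusted p under 0.05 (3.35% of genes) and 0 by DESeq2 (0.0143%). In ttg1 they ran from −1.28 for VND7 to 0.64 for MYB46, with 0 called by edgeR (0.12% of all genes), 0 at an unadjusted p under 0.05 (15.8%) and 0 by DESeq2 (3.35%). With the Col-0 files as 2 samples 0 members were called in either (0.0% and 0.41% of genes). With Col-0 as 1 sample, CESA4, CESA7 and CESA8 were 0.43, 0.50 and 0.44 in ttg1 against the enzyme lines. TED6 was −0.29 in that comparison, and the standard errors of the 4 genes were 0.26 to 0.40. A p over the threshold does not show that the groups were alike.

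The members did not vary as a single block across the 16 mutant libraries. CESA4, CESA7 and CESA8 followed each other closely (Pearson r of log2(CPM + 0.5) from 0.873 to 0.934), and MYB46 followed them (0.804 to 0.827). TED6, XCP1 and XCP2 also followed each other (0.746 to 0.831), as LAC17 did them (0.739 to 0.827). TED6 and XCP1 followed the cellulose synthases more loosely (0.310 to 0.462), and XCP2 lay between (0.677 to 0.814). Over the 14 mutant libraries without tt1, a choice made after seeing the data, the synthases had 0.886 to 0.942 among themselves and TED6 and XCP1 had 0.291 to 0.423 with them. These values describe libraries that share a growth condition and differ in depth.

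The same levels can be given as the ratio of TED6 to the mean of the 3 synthases in each library. Leaving out tt1, it was 0.301 in tt8-8, 0.315 in tt8-7, 0.340 in ttg1-24 and 0.370 in ttg1-23, and it reached 0.872 in tt5-3 and 0.970 in tt8-9, against 0.735 in Col-0. In tt1-4 and tt1-5, whose low TED6 led to the choice of these genes, the ratio was 0.194 and 0.182 and the mean of the synthases 7.50 and 6.73 CPM. The ratio of CESA4 to CESA7 stayed between 0.994 and 1.64 in the mutants, against 0.991 in Col-0.

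**Figure D3:**
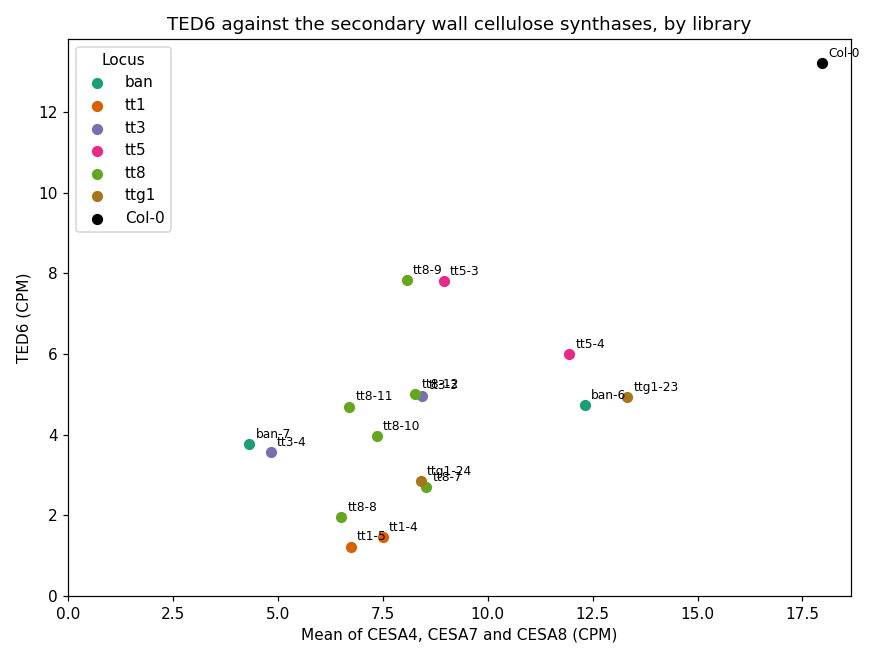
TED6 (y axis, CPM) against the mean of CESA4, CESA7 and CESA8 (x axis, CPM), 1 labelled point per sample, coloured by locus. Both tt1 points lie lowest on the y axis at middle values on the x axis, and Col-0 is highest on both.

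The other genes of the pathway numbered 62, of which 57 were tested. SND1, NST1, NST2, MYB58 and MYB103 stayed under the filter. SND1 and NST1, which direct fibre walls, and NST2 never exceeded 2 counts. Col-0 was the highest of 17 samples for 29 of the 57, and for 28 of the 56 that reached the filter level in a mutant, against 10.7% of all such genes. The median of the fitted values was −0.66 in ban, −1.03 in tt3, −0.46 in tt5, −0.90 in tt8 and −0.58 in ttg1. The test called 2 of the 57 in tt8 against Col-0, both lower, and 0 in the other 6 comparisons tested. The 2 are 3.51% against 2.21% of all genes, close to that background. VND6, among the 2, passed the filter through Col-0 alone and so had to be higher there. It is included in the medians, calls and unadjusted counts of these 57 genes. An unadjusted p under 0.05 was reached against Col-0 by 10 in ban (15.0% of all genes), 19 in tt3 (18.8%) and 6 in tt5 (10.8%). It was reached by 22 in tt8 (20.5%) and 14 in ttg1 (18.9%). Against the enzyme lines it was 2 in tt8 (3.35%) and 9 in ttg1 (15.8%).

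The 2 called genes were SND2 and VND6. SND2, a NAC factor below the master regulators, fell in tt8 by 2.05 on the log2 scale (SE 0.48, adjusted p = 0.0480), with 0.291 to 0.920 CPM in tt8, against 2.43 CPM in Col-0. VND6, the NAC factor of metaxylem vessels, was called at −2.45 (SE 0.58, adjusted p = 0.0481), but no mutant library had more than 10 counts, and it passed the filter through Col-0 alone. Both calls lay close to the threshold: the number of pathway calls over the 7 comparisons, 2 here, was 0 without the low-count filter or with a line-end term, 0 without any of tt8-10, tt8-11, tt8-12 or tt8-8 in turn, and 35 with DESeq2 (9.09% of its pathway tests, against 3.91% of its tests over all genes). Among genes of xylan and wall assembly, 0 of 16 passed, with medians of −1.09 in ban, −1.35 in tt3, −0.78 in tt5, −1.14 in tt8 and −0.88 in ttg1, and all 16 below 0 in tt8. At an unadjusted p under 0.05 there were 0 to 10 of these 16 over the 7 comparisons, where 3.35% to 20.5% of all genes had one. Of the 7 lignin polymerisation genes 0 passed in the comparisons tested (0 to 2 at an unadjusted p under 0.05), and of the 13 genes of vessel patterning and cell death 0 passed (1 to 6). Over all genes, 0.0% to 2.21% were called in these comparisons and 3.35% to 20.5% had an unadjusted p under 0.05. The count of 6 of 13 was reached in tt8 (20.5% of all genes) and ttg1 (18.9%) against Col-0. It was also reached in ttg1 against the enzyme lines (15.8%).

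A list for primary wall cellulose, made of other CESA genes with CSI1 and KOR1, was set beside the members. CESA1, a subunit of the primary wall complex, fell in tt8 by 0.59 (SE 0.12, adjusted p = 0.0292), with 217 to 251 CPM in tt8, against 343 CPM in Col-0. It was the 1 gene called of the 8 tested in this list, where 2.21% of all genes were called. The median of the list was −0.36 in tt8. As a description for tt1 against Col-0, CESA1 was −0.65 and LAC4, a laccase of the vessel wall, was −1.78, with LAC4 at 5.72 and 6.58 CPM in tt1-4 and tt1-5, against 19.3 CPM in Col-0. They are named by the rule of naming called genes, 1 in each of their lists, where 1.55% of all genes were called. No test is read from these tt1 values. LAC4 was not the largest fall: the lowest value of the lignin polymerisation list in tt1 was −3.37.

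Marker genes of other tissues also varied between libraries. The summed level of the 6 seed reserve genes was 5229 and 17934 CPM in the tt1 libraries and 371 to 4762 CPM in the other mutants, against 839 CPM in Col-0, with none of them at 0. The 8 procambium markers summed to 112 and 145 CPM in tt1 and 63.1 to 183 CPM in the other mutants, against 176 CPM in Col-0, and the 7 endodermis markers to 28.3 and 64.9 CPM in tt1 and 7.76 to 165 CPM in the other mutants, against 115 CPM in Col-0. Of the 9 phloem markers, 0 passed edgeR in the comparisons tested (0 or 1 at an unadjusted p under 0.05). Over all genes, 0.0% to 2.21% were called there and 3.35% to 20.5% had an unadjusted p under 0.05. Fitted values of the endodermis and procambium markers also lay mostly below 0 against Col-0. The 6 seed reserve genes had medians above 0 in ban (1.22), tt3 (0.62), tt5 (2.68) and tt8 (1.66), and −0.18 in ttg1. In that order of loci, the medians of the 9 phloem markers were −0.44, −0.65, −0.14, −0.52 and 0.05. Those of the 5 epidermis markers were 0.25, −0.23, −0.03, −0.21 and −1.03. The 4 mesophyll markers tested had −0.29, −0.41, −0.24, −0.27 and 0.11. For the endodermis markers the median was −0.37 in ban, −1.52 in tt3, −0.46 in tt5, −0.98 in tt8 and −0.70 in ttg1, with all 7 below 0 in tt3, tt5 and tt8 and 6 in ban and ttg1. For the procambium markers it was −0.64 in ban, −0.75 in tt3, −0.40 in tt5, −0.95 in tt8 and −0.47 in ttg1, with 7 of 8 below 0 in ban, tt3 and tt8 and 6 in tt5 and ttg1. None of the endodermis or procambium markers was called by edgeR in the comparisons tested (0 to 2 at an unadjusted p under 0.05). With 0.0% to 2.21% of all genes called there, 0 calls in lists this short say little. An unadjusted p under 0.05 was reached by 3.35% to 20.5% of all genes. The part of these tissues in the members' values was not tested.

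The genes most like the members' mean profile over 17 samples were LAC4 (Pearson r 0.916), AT5G60720, AT5G03510, AT5G40020, AT4G12270, the xylan gene IRX9, AT1G63520 and the xylan-modifying gene GUX2, down to r 0.868. Without Col-0, 3 of these 8 stayed among the 8 most like, LAC4, AT5G60720 and AT5G03510. For TED6 they were the germin-like gene GL22 (0.914), TED7 (0.886), AT1G05310, AT5G40020 and the laccase LAC11 (0.867), and without Col-0 only GL22 of the 5 stayed.

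The pathway genes TED7, LAC11, MC9, a metacaspase of vessel cell death, and the nucleases RNS3 and BFN1 are set beside the members in the plot of levels relative to Col-0. In likeness to the members' mean profile, TED7 and LAC11 ranked 156 and 624 of 20738 genes. MC9, RNS3 and BFN1 ranked 2523, 2544 and 2971. TED7 had 0.216 and 0 CPM in tt1-4 and tt1-5 and 0 CPM in ttg1-24, against 5.86 CPM in Col-0; a count of 0 allows up to 0.229 CPM in tt1-5 and 0.372 CPM in ttg1-24.

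**Figure D4:**
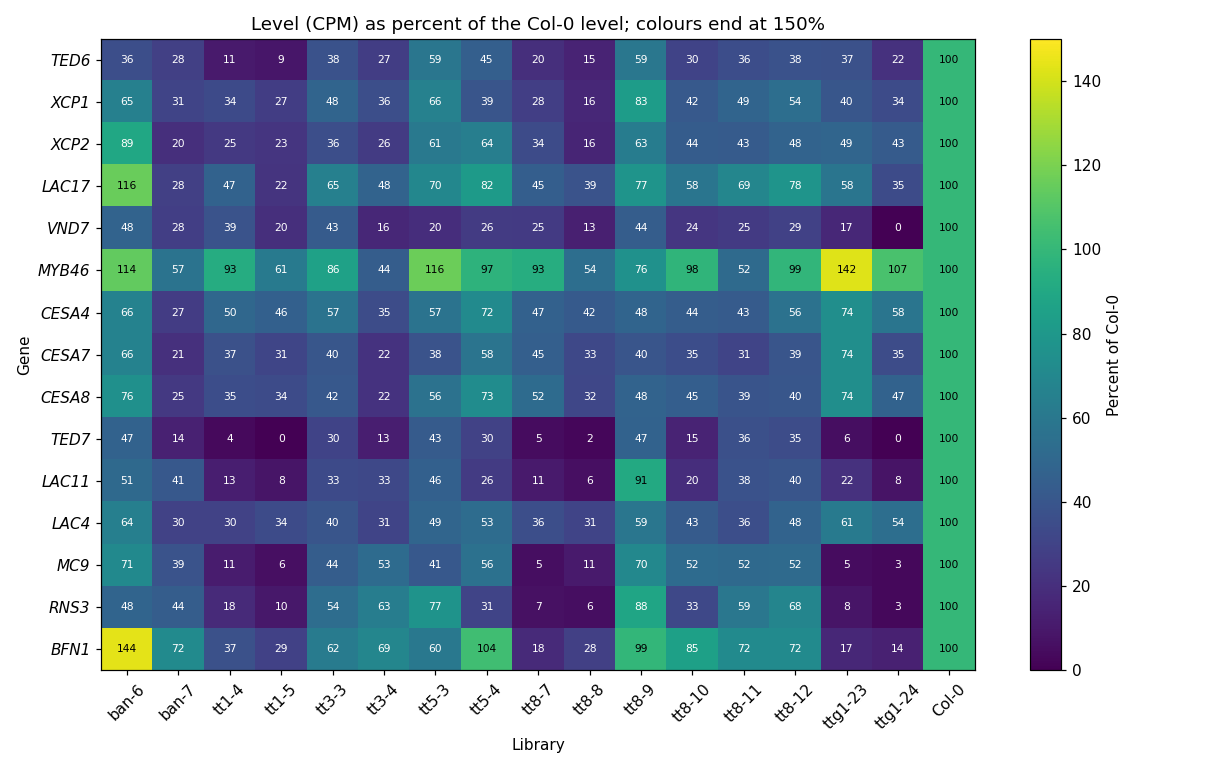
Level of 9 members and 6 other pathway genes (rows) in each library (columns) as percent of the Col-0 level, with Col-0 (100) at the right. In tt1-4, tt1-5, tt8-7, tt8-8, ttg1-23 and ttg1-24, TED7 is at 0 to 5.70, MC9 at 3.45 to 11.2 and LAC11 at 6.36 to 21.6 percent, while MYB46 is near or above the Col-0 level in several mutants.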

How the data were processed

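Counts per gene for 18 seedling libraries were used as deposited by the authors. HISAT2 and the build TAIR10 are named in the submitters' processing notes; per the labels' protocols the libraries came from a stranded mRNA kit and were read from 1 end over 50 bases. Counting program, annotation and strand setting: not given in the sources used here. Of 33939 identifiers, 1392 that name no locus (0.00637% to 0.0204% of counts) were left out. The Col-0 files (chi-square per degree of freedom 0.222, against 9.54 to 143 in 20 other pairs) were averaged into 1 sample.

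CPM was computed over the 32547 loci. edgeR 4.0.16 in R 4.3.3 (TMM, filterByExpr, robust quasi-likelihood F-test, two-sided, Benjamini-Hochberg at 0.05) was fitted to 20747 genes, 17 samples and 7 groups with 10 residual degrees of freedom; the scripts were checked on simulated data. Adjusted p-values without a tool's name are from this fit. Standard errors are the fitted value over the square root of F. Alternatives were DESeq2 1.42.0, RLE scaling, no filter, Col-0 as 2 samples, a line-end term, the compared libraries alone, and leaving out libraries. Counts without VND7 and correlations without tt1 were chosen after seeing the data. Members and gene lists were chosen with earlier results of these data known. Members are given singly where called or at least 1 in size on the log2 scale; other genes where called, at most 4 per list; the 8 and 5 genes most like the members' mean and TED6 are named. MC9, RNS3, TED7, BFN1 and LAC11 were chosen for display after their values were seen.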

Additional observations from a re-analysis of the deposited data

How the results depend on the processing

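The number of members called in the comparisons with Col-0, 0 in each, changed with the setting. With DESeq2 it became 4 in tt3 (5.19% of all genes), 3 in tt8 (7.12%) and 1 in ttg1 (7.44%). With the Col-0 files as 2 samples it became 2 in ban (8.89% of all genes), 4 in tt3 (12.1%), 7 in tt8 (21.0%) and 2 in ttg1 (14.4%). With the compared libraries alone it was 3 in tt8 (2.83% of all genes). Leaving out 1 library at a time gave 0 to 3 in ban, with 3.42% of all genes at the highest, and 0 to 1 in tt8, with 1.23%. VND7 is among the members counted with Col-0 as 2 samples in tt8 and ttg1, and without it the counts were 6 and 1. The median of the members in tt1 against Col-0, −1.67, was −2.04 with a line-end term, which only tt8 can estimate, and −2.06 to −1.57 without 1 library at a time; against the enzyme lines it was −0.45, and −0.62 to −0.13. Pathway genes called over the 7 comparisons, 2 (0.501% of tests, against 0.757% over all genes), became 35 with DESeq2 (9.09% against 3.91%), 4 with RLE scaling (1.003% against 0.754%), 46 with the Col-0 files as 2 samples (11.5% against 8.71%) and 9 with the compared libraries alone (2.28% against 0.574%). They became 0 without the low-count filter (0.317% over all genes) and 0 with a line-end term (0.0592%), and 0 to 13 without 1 library at a time (13 without ban-6, where the refitted comparisons called 6.43% against 1.21%). The cause was not tested. VND6, which passed the filter through Col-0 alone, is among these pathway genes. Apart from the tt1 comparisons, 331 refits of 30 single member values, none past the threshold as reported, changed direction in 0, and 30 came past it. Those 30 values were picked for a size of at least 1 on the log2 scale, which made a change of direction unlikely. They include VND7, which passed the filter through Col-0 alone, and nearly all share the single Col-0 sample. No paired analysis was possible because the replicate numbers of the alleles come from accession order and pair no samples across loci.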

Other observations

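MC9, a metacaspase of vessel cell death, fell into separate levels across the 17 samples. It had 3.62 and 2.06 CPM in tt1-4 and tt1-5, 1.77 and 3.56 CPM in tt8-7 and tt8-8, and 1.56 and 1.12 CPM in ttg1-23 and ttg1-24. The other mutants had 23.0 and 12.5 CPM in ban-6 and ban-7, 14.4 and 17.02 CPM in tt3-3 and tt3-4, 13.4 and 18.2 CPM in tt5-3 and tt5-4, and 22.7, 16.97, 16.7 and 16.9 CPM in tt8-9, tt8-10, tt8-11 and tt8-12, against 32.4 CPM in Col-0. The nucleases RNS3 and BFN1 and the TED6 relative TED7 had their 6 lowest values in the same 6 libraries, at up to 1.997 CPM for RNS3 (next 3.44), 10.7 CPM for BFN1 (next 17.2) and 0.334 CPM for TED7 (next 0.737). LAC11 had 5 of these 6 among its 6 lowest. These genes were chosen after their values were seen, and the levels are given as values. The split within tt8 was not limited to them. Over genes with at least 20 summed counts, chi-square per degree of freedom was 48.3 to 112 between tt8-7 or tt8-8 and tt8-9 to tt8-12. Among tt8-9 to tt8-12 it was 9.54 to 27.9. Epidermis markers summed to 276 and 509 CPM in tt8-7 and tt8-8, and 707 to 824 CPM in tt8-9 to tt8-12. Phloem markers summed to 90.6 and 83.2 CPM, and 43.7 to 66.3 CPM.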
